A study of Mus musculus with 14 samples.

Results

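Resident macrophages of the mouse peritoneum were compared with and without IL-4 complex. The members were the 7 arrays of cells that had received no thioglycollate, of 14 in the series: 3 of cells from mice given the PBS vehicle (PBS) and 4 of cells from mice that received the complex (IL-4c), taken by their titles. IL-4 complex was 5 µg of interleukin-4 bound to 25 µg of the antibody 11B11, injected into the peritoneal cavity. All mice were C57BL/6, and in both groups the cells were sorted as positive for CD11b and for F4/80 before total RNA was labelled with Cy3 and hybridised to Agilent whole-genome arrays. The other 7 arrays held cells of mice given thioglycollate, alone or with IL-4c. The time between injection and sampling, and the age and sex of the mice, are not given in the sources used here. The labels do not say whether the samples of a group came from separate animals or pools, and the p-values therefore reflect the spread among the arrays alone, which may be technical.

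Interleukin-4 signals through a receptor that activates the kinases JAK1 and JAK3 and the transcription factor STAT6, and it drives macrophages into the alternatively activated state, known for arginase, chitinase-like and resistin-like proteins. The antibody in the complex lengthens the life of the cytokine in the body. Resident peritoneal macrophages are long-lived cells of largely embryonic origin that depend on the factor GATA6, clear dying cells and proliferate locally, and interleukin-4 is known to make them divide.

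Levels are given as log2 of the processed signal relative to the 75th percentile of the same array, so that a level of 0 is that percentile, and differences are IL-4c minus PBS on the log2 scale, SE being their standard error. In all, 19142 genes could be tested. With limma and a Benjamini-Hochberg adjusted p under 0.05 over all of them, 9623 genes were called (50.3%), 4902 higher in IL-4c (25.6%) and 4721 lower (24.7%). Since so many genes passed, each group of genes below has to be read against these shares. The arrays of the groups did not overlap for 55.7% of all genes. At least 2-fold differences were called for 1501 genes that rose and 1375 that fell, and at least 8-fold differences for 249 and 124. The median difference of all genes was 0.01. The counts of calls, the counts in lists and most named genes were also computed in 21 alternative fits. Of these 14 had another scaling, filter or design and 7 each left out 1 array. Followed genes whose call was lost in some fits are named with the number of fits, mostly at the end of a paragraph. A few genes had values in 20 of the fits. Some genes, such as Adgre4, Cebpe, Csf3r, Mal, Mall and Spag5, were not followed. Bounds, marker sums, promoter counts and neighbouring pairs were computed in the main setting alone. A gene's values are those of 1 probe, and where another of its probes lay at least 1.5-fold away, that probe's difference (the farthest one's, if several) is given too.

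Array brightness and treatment coincided. The 75th percentile of the signal lay between 1275.4 and 1818.5 in PBS and between 3058.7 and 3883.4 in IL-4c, and 79.2% to 84.8% and 86.1% to 92.6% of probes were well above background. No PBS array had a signal well above background for 320 genes, and no IL-4c array for 12. All 7 arrays were on 1 slide, but the PBS arrays and IL-4c 1 lay in slide row 1 and IL-4c 2 to 4 in row 2. With slide row as a term, which sets IL-4c 1 against the PBS arrays of its own row, 6342 genes were called. A part of row or brightness in the differences cannot be told apart from treatment beyond that. Across genes, arrays of 1 group correlated at r of 0.955 to 0.983 and arrays of different groups at 0.902 to 0.939. The median SD of a gene was 0.145 in PBS and 0.128 in IL-4c.

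Changes were ranked among genes well above background on all 7 arrays whose groups did not overlap. Most of the genes with the largest rises lay below the array's 75th percentile in PBS. Chil4 (Ym2), a secreted chitinase-like protein, read -3.38, -4.09 and -3.92 in PBS and 5.98, 6.01, 5.63 and 6.12 in IL-4c, a rise of 9.73 (SE 0.20, adjusted p = 3.16e-06), or 850-fold. Aqp3, a channel for water and glycerol, read -3.26, -3.89 and -4.496 in PBS and 5.45, 5.298, 4.88 and 5.09 in IL-4c, 535-fold higher (SE 0.30, adjusted p = 8.2e-06). In both genes every IL-4c array stood far above every PBS array. Cst7, which encodes cystatin F, an inhibitor of lysosomal cysteine proteases, read -3.75, -3.69 and -3.84 in PBS and 3.98, 4.02, 3.85 and 4.22 in IL-4c, a 220-fold rise (SE 0.10, adjusted p = 7.6e-07). Ddx4, the RNA helicase known as a germ cell marker, read -4.79, -4.69 and -5.05 in PBS and 3.17, 3.67, 2.81 and 3.504 in IL-4c, 280-fold higher (SE 0.22, adjusted p = 4.59e-06). The spread among the IL-4c arrays of Ddx4 (SD 0.38) was larger than among those of Cst7 (SD 0.15), and small beside either rise.

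Next came Klk1b11 (7.14, SE 0.21), a kallikrein of a family of near-identical copies that the probe may not tell apart, and Serpinb7 (6.86, SE 0.09), a serine protease inhibitor of clade B. The transcription factor gene Tcf23 rose by 6.32 and Galnt6, which starts mucin-type O-glycans, by 6.19 (3.34 on its other probe). Ucp1, the uncoupling protein of brown fat mitochondria, averaged -0.64 in PBS (SD 0.54, n = 3) and 5.35 in IL-4c (SD 0.26, n = 4), a 63.9-fold rise (SE 0.27, adjusted p = 1.96e-05). Gatm, the enzyme of the first step of creatine synthesis, read -3.12, -3.06 and -2.85 in PBS and 2.59, 2.80, 2.77 and 3.13 in IL-4c, 57.1-fold higher (SE 0.14, adjusted p = 3.96e-06). PBS arrays scattered more for Ucp1 than for Gatm, and IL-4c arrays were tight for both. Chil3 (6.03), a relative of Chil4, the ribonuclease genes Ear10 (6.00) and Rnase2a (5.71), members of a family of close copies, the synaptotagmin gene Syt10 (5.76) and the VEGF receptor gene Flt1 (5.49) completed the 15 largest rises.

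Most of the genes with the largest falls lay above the 75th percentile in PBS. Cxcl13, a B cell chemoattractant of resident peritoneal macrophages, read 6.88, 7.32 and 6.92 in PBS and -2.32, -2.48, -2.197 and -2.501 in IL-4c, 682-fold lower (SE 0.14, adjusted p = 9.31e-07). Lyz2, the lysozyme whose promoter is widely used to mark macrophages, read 8.39, 8.41 and 8.61 in PBS and 1.52, 0.84, 1.63 and 0.77 in IL-4c, 155-fold lower (SE 0.25, adjusted p = 8.92e-06). Lyz2 fell from far above the array's 75th percentile to near it, and its relative Lyz1, a near-identical copy whose probe may share signal, fell by 3.45. F13a1, the catalytic subunit of coagulation factor XIII, read 4.83, 5.08 and 4.01 in PBS and -3.46, -2.96, -3.39 and -2.73 in IL-4c, and fell by 7.77 (the other probe fell by 4.18). Lpl, lipoprotein lipase, read 4.67, 4.91 and 4.66 in PBS and -2.48, -2.13, -1.49 and -2.601 in IL-4c, 122-fold lower (SE 0.27, adjusted p = 1.3e-05). Irf8, a transcription factor of macrophage and dendritic cell development, read 3.903, 3.88 and 3.74 in PBS and -2.82, -2.62, -2.16 and -1.95 in IL-4c, 75.1-fold lower (SE 0.22, adjusted p = 9.57e-06). The ranking required groups without overlap, so only the width of the gap between the groups is a result for these genes, and it was wide. Another probe gave a difference of -6.05 for Lpl.

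Dusp6, a phosphatase that switches off the kinase ERK, fell by 6.08 (SE 0.26), and the acute-phase haemoglobin scavenger gene Hp by 5.29 (SE 0.33). The lipoprotein genes Apoc4 (-5.64), Apoc1 (-5.404) and Pltp (-5.06) and the sterol exporter gene Abca1 (-5.12) fell with Lpl. Emb, which encodes a chaperone of a lactate transporter, fell by 5.03, the cell cycle arrest gene Rprm by 4.97 and the N-acetylaspartate synthase gene Nat8l by 4.82. The heat shock gene Hspa1a read 0.56, 2.45 and 3.06 in PBS and -3.11, -3.13, -2.26 and -3.22 in IL-4c. Its fall of 4.96 (SE 0.61, adjusted p = 0.000757) went with a PBS SD of 1.302, since PBS arrays ran over a wide range.

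**Figure D1:**
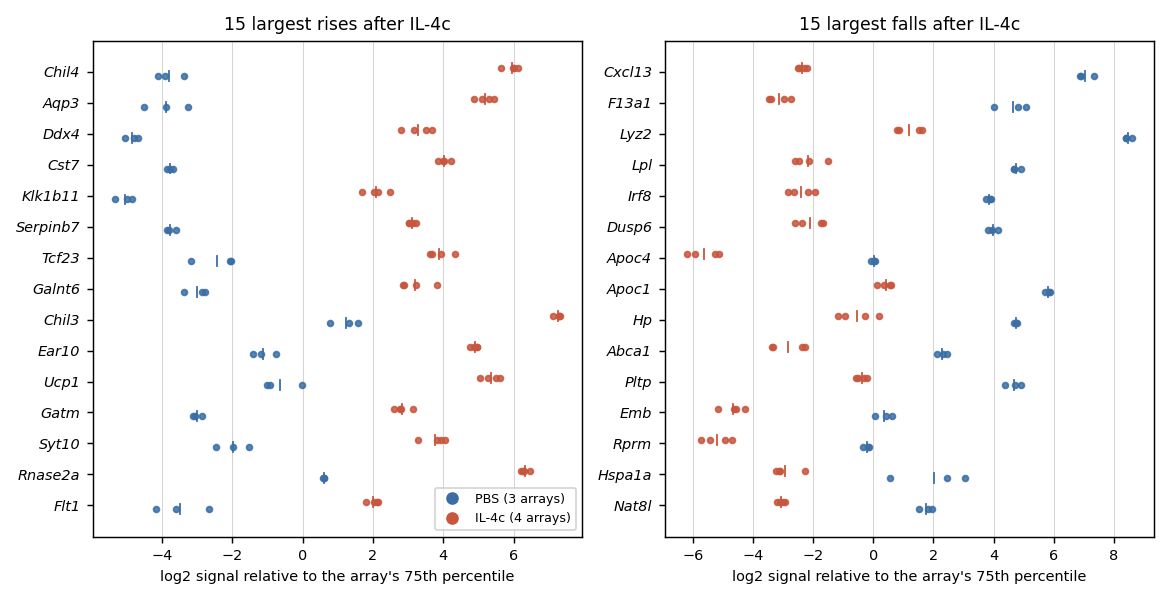
Log2 signal relative to the 75th percentile of each array (x axis) for the 15 genes with the largest rises (left) and the 15 with the largest falls (right) among genes well above background on all 7 arrays whose groups did not overlap. Each point is 1 array, 3 of PBS and 4 of IL-4c, and the short lines are group means. Chil4 and Aqp3 lie at the top of the rises and Cxcl13 at the top of the falls.

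For genes that were not well above background on any array of a group, only a bound can be given. In IL-4c the ectonucleotidase gene Entpd3 stood at least 122-fold higher, the water channel gene Aqp1 at least 74.4-fold, the actin-binding gene Avil at least 32-fold, the lectin gene Clec2h at least 28.1-fold, the receptor gene Trem3 at least 20.1-fold and Cdh1 (E-cadherin) at least 16.2-fold. In the other direction, the homeobox gene Meox1 was at least 42-fold lower in IL-4c, the integrin gene Itgb5 at least 40.3-fold, the glycogen-targeting subunit gene Ppp1r3c at least 23.5-fold and the adhesion receptor gene Adgrl4 at least 10.2-fold. These bounds set the bright group's mean against the lowest signal well above background on the dim arrays. Such genes passed the filter on probes through the bright group alone, so their direction followed from the choice.

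Of the genes of the receptor and its signalling chain, only Irs1 was called with an at least 2-fold difference on the probes used. Il4ra, the receptor's binding chain, differed by -0.16 (SE 0.10, adjusted p = 0.233) and Stat6 by -0.15 (SE 0.07, adjusted p = 0.148), and their other probes by -0.83 and -1.11. Of 16 measured members of this list 2 rose and 6 fell, the falls being 0 to 8 in number under the alternative settings, with a median of -0.22, which was 0.03 in the authors' table. The adaptor gene Irs1, which carries the signal to PI3 kinase, rose by 1.73 (SE 0.11). The feedback inhibitors split. Cish, a STAT-induced inhibitor of cytokine receptors, read -2.26, -2.35 and -2.21 in PBS and 1.59, 1.27, -0.04 and 0.57 in IL-4c, 8.69-fold higher (SE 0.39, adjusted p = 0.000795). Socs1, which blocks JAK kinases, read -1.28, -2.43 and -1.78 in PBS and 1.75, 1.09, 0.93 and 0.47 in IL-4c, 7.42-fold higher (SE 0.37, adjusted p = 0.000956). Neither gene's groups overlapped, though the IL-4c arrays ranged widely. The other relatives behaved otherwise: Socs2 differed by 0.32 (adjusted p = 0.127) and Socs3 by 0.19 (0.44), while Pias3, an inhibitor of STAT proteins, fell by 1.22 and the phosphatase gene Ptpn6 by 0.73. Of 14 members 4 rose and 5 fell (2 to 7 fell under the alternatives, 3 without PBS 2, PBS 3 or IL-4c 4).

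Chitinase-like and resistin-like genes rose in 8 of 9 cases and none fell. Chil3 (Ym1), a neighbour and close relative of Chil4, read 0.79, 1.31 and 1.57 in PBS and 7.29, 7.12, 7.29 and 7.32 in IL-4c, 65.4-fold higher (SE 0.18, adjusted p = 6.53e-06). Retnla (RELM alpha) was already high in PBS and read 6.83, 7.02 and 6.86 in PBS and 7.47, 7.32, 7.46 and 7.59 in IL-4c, 1.47-fold higher (SE 0.09, adjusted p = 0.00213). So Retnla kept a narrow gap between groups where Chil3 moved from modest to very high. Retnlg rose by 3.404 (SE 1.09), carried in part by IL-4c 1 at 1.86 against -2.28, -1.78 and -1.93 on the other IL-4c arrays, and without IL-4c 1 the difference was 2.44 (adjusted p = 0.00922). Retnlb was not well above background in PBS and was at least 2.8-fold higher. With normexp background correction, in the authors' table or with probes well above background on all 7 arrays, 5 members rose. Probes of close copies in this family may share signal. The call was lost in some fits for Retnlb (2 of 20 fits) and Retnlg (8 of 21 fits).

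Promoter letters are shown for 3 rising genes, because STAT proteins are known to bind TTCNNNGAA and STAT6 also TTCNNNNGAA, with N any base. They come from RefSeq windows of 300 bases (250 before to 50 after a gene's start, build GRCm38.p6), which 15184 of the 19142 genes tested have. Both strands were searched, and a gene counted if any of its windows held the letters. The form with a spacer of 4 is in capitals: in Serpinb7 (chr1:107422478-107422537, + strand), in Retnlg (chr16:48872511-48872570, + strand) and in Retnla (chr16:48842439-48842498, + strand).
Serpinb7: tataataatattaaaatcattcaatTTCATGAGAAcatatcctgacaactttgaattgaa
Retnlg: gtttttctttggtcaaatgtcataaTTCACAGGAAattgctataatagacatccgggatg
Retnla: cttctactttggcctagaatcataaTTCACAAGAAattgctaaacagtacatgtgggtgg

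The spacer-4 form was found in 7.09% of all genes with a window, in 7.61% of the 197 such genes called at least 8-fold higher and in 5.26% of the 95 called at least 8-fold lower. The spacer-3 form was in 8.95%, 8.12% and 13.7% of these genes. Chil3 and Chil4 hold the spacer-3 form in their windows. A match describes letters in a window and shows no binding.

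Genes known for alternative activation went both ways. Of 35 measured, 16 rose and 8 fell. Arg1, the arginase, read 3.28, 2.96 and 3.803 in PBS and 7.39, 7.23, 7.51 and 7.52 in IL-4c, 16.7-fold higher (SE 0.20, adjusted p = 2.54e-05), and the arginine transporter gene Slc7a2 rose by 4.71 (SE 0.13). The crosslinking enzyme gene Tgm2 (3.74), the coactivator gene Ppargc1b (3.05) and the lectin genes Clec10a (2.34) and Mgl2 (2.34) rose as well. On the other side, Mrc1, the mannose receptor, read 1.55, 1.897 and 1.63 in PBS and 0.50, 0.42, 0.94 and 1.07 in IL-4c and fell by 0.96 (SE 0.19, adjusted p = 0.00639). Ccl24, a chemokine for eosinophils, read 4.69, 4.86 and 4.503 in PBS and 2.39, 2.698, 2.87 and 2.72 in IL-4c, 4.04-fold lower (SE 0.14, adjusted p = 7.38e-05). Arrays of the groups did not overlap for Mrc1 or Ccl24, although both are widely used as markers of the alternative state. Egr2 (-1.41), the Notch ligand gene Jag1 (-1.69) and Alox15 (-1.31) also fell. Ccl17 rose by 1.17 (SE 0.19) and Il4i1, an amino acid oxidase, by 1.02 (SE 0.24, adjusted p = 0.0131). The difference of Pdcd1lg2, which encodes the ligand PD-L2, was 0.47 (adjusted p = 0.0528). Ccl22 was well above background on fewer than 3 arrays and was not tested. In some of the 21 fits the calls lost were those of Alox15 (1 fit) and Il4i1 (2 fits).

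Around arginase, 11 of 20 genes of arginine and polyamine metabolism rose and 4 fell. Besides the transporter genes Slc7a2 and Slc7a1 (2.38), the proline pathway gene Aldh18a1 (3.25), the arginine synthesis gene Ass1 (2.05), and the ornithine decarboxylase gene Odc1 (1.29) with the spermidine synthase gene Srm (0.91) rose. The genes of polyamine breakdown Smox (-2.799) and Sat1 (-0.70) fell, as did the antizyme gene Oaz2 (-0.88), whose product restrains ornithine decarboxylase. Nos2, the enzyme that competes for arginine, differed by -0.08 (adjusted p = 0.676). Calls not kept in all 21 fits were those of Sat1 (1 fit) and Srm (3 fits). On another probe the difference was 0.56 for Odc1 and -2.19 for Smox.

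**Figure D2:**
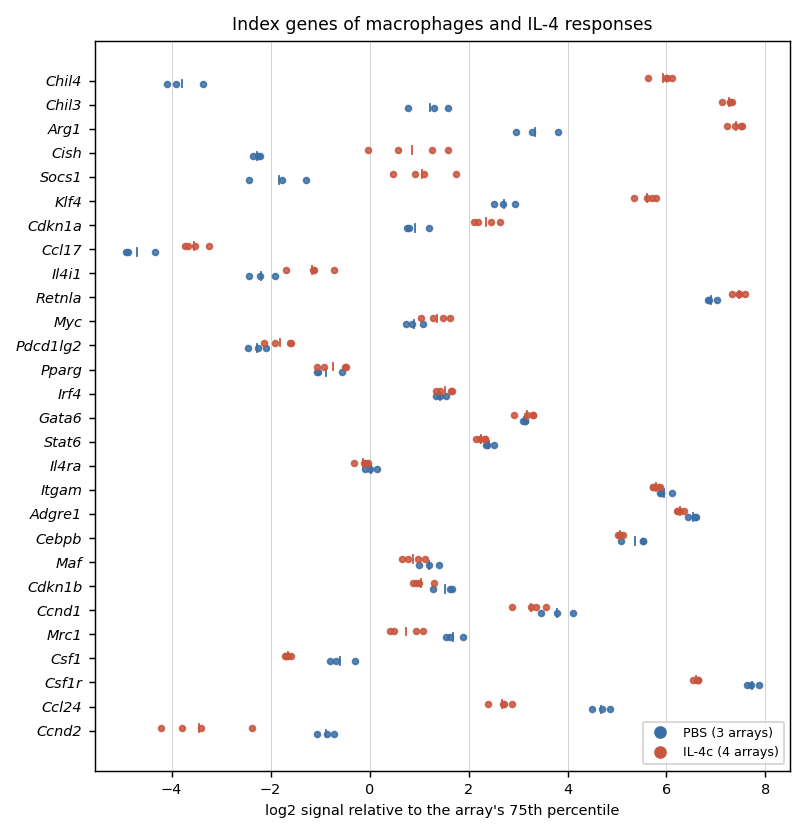
Log2 signal relative to the 75th percentile of each array (x axis) for index genes of macrophages and of IL-4 responses, ordered by their difference. Points are arrays, 3 of PBS and 4 of IL-4c, and short lines are group means. Chil4, Chil3 and Arg1 lie at the top with wide gaps, Gata6, Il4ra and Stat6 lie in the middle, and Ccnd2 and Ccl24 lie at the bottom.

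Of 47 transcription factor genes of macrophage identity and activation, 8 rose and 18 fell. Klf4, a factor that cooperates with STAT6, read 2.52, 2.71 and 2.93 in PBS and 5.78, 5.698, 5.35 and 5.603 in IL-4c, 7.41-fold higher (SE 0.14, adjusted p = 2.36e-05). Tfec, a factor of the MiT family that interleukin-4 is known to induce, rose by 2.53 (SE 0.12). Bhlhe40 (1.13) and the small AP-1 factor gene Batf3 (1.003) rose less. After Irf8, the falls included those of the myeloid factor gene Cebpa (-2.06), the lysosomal regulator gene Tfeb (-1.76), Klf2 (-1.44) and the repressor gene Bcl6 (-1.38). Maf, a brake on macrophage self-renewal, differed by -0.33 (SE 0.15, adjusted p = 0.113). Gata6, the factor of peritoneal identity, read 3.101, 3.14 and 3.13 in PBS and 3.18, 3.31, 2.93 and 3.298 in IL-4c, a difference of 0.05 (SE 0.10, adjusted p = 0.715). Its IL-4c arrays lay on both sides of the PBS arrays. Irf4, known as an early target of STAT6, differed by 0.08 (0.563), Pparg by 0.15 (0.594), Cebpb by -0.31 (0.0802) and Myc by 0.47 (0.051).

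Cell division genes rose almost without exception. Of 52 measured DNA replication genes 50 rose (96.2%, against 25.6% of all genes) and 1 fell, with a median of 1.89. Of 54 mitosis genes 52 rose (96.3%) and 0 fell, with a median of 3.05. Rrm2, the regulated subunit of ribonucleotide reductase, read 0.20, -1.196 and 0.23 in PBS and 4.55, 4.48, 4.69 and 4.59 in IL-4c, 28.5-fold higher (SE 0.36, adjusted p = 9.44e-05). Nuf2, a part of the kinetochore, read -2.98, -4.503 and -3.24 in PBS and 1.19, 1.14, 1.32 and 1.24 in IL-4c, 27.7-fold higher (SE 0.36, adjusted p = 9.62e-05). The groups were apart for both, and PBS 2 was the lowest array of each. The replication regulator gene Uhrf1 (3.398), the thymidine kinase gene Tk1 (3.30) and the primase gene Prim1 (3.12) led the rest of the first list, and the checkpoint kinase gene Bub1 (4.24), the cyclin genes Ccnf (4.09) and Ccna2 (4.06) the second. Mcm2 to Mcm7, the subunits of the replicative helicase, all rose, by 1.69 (Mcm6) to 2.62 (Mcm5). Of the few members that did not rise, Gins3 fell by 0.25, and Pttg1 differed by -0.17 (adjusted p = 0.117), Espl1 by 0.15 (0.24) and Dnmt1 by 0.95 (0.051). Some of the 21 fits lost the call of Gins3 (9 fits, the sign turned in 1). The farthest other probe differed by 0.49 for Nuf2, -0.92 for Pttg1 and 1.51 for Uhrf1.

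The promoters of these genes are shown because they hold the letters by which cell cycle genes are known to be switched. The cell cycle homology region (CHR, TTTGAA), bound by the DREAM and MuvB complexes, was in 32 of the 45 mitosis genes with a window (71.1%), against 17% of all genes, and the CCAAT box (CCAAT), bound by NF-Y, in 73.3% against 42.1%. Windows of 60 bases that end at or before the gene's start follow, with the CHR letters or their reverse complement in capitals: Ccnf (chr17:24251410-24251469, - strand), the ubiquitin-conjugating enzyme gene Ube2c (chr2:164769869-164769928, + strand), the spindle midzone gene Prc1 (chr7:80294416-80294475, + strand) and the kinesin gene Kif11 (chr19:37376322-37376381, + strand). The genes rose by 4.09, 3.94, 3.399 and 3.66, and the letters begin 14, 29, 30 and 19 bases before the start (for Prc1, the second of its starts in RefSeq). The CHR letters can share bases with a STAT form, and E2F forms with each other.
Ccnf: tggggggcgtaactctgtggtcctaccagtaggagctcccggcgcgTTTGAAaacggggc
Ube2c: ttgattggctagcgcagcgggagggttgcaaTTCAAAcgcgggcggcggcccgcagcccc
Prc1: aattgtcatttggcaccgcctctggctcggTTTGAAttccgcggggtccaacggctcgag
Kif11: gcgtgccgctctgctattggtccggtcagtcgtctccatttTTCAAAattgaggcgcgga

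Of the 43 DNA replication genes with a window, 16.3% held the E2F letters TTTGGCGC, 16.3% held TTTCCCGC and 9.3% held TTTGGCGG, against 0.843%, 1.79% and 0.83% of all genes. Shown with those letters or their reverse complement in capitals are the origin licensing gene Cdc6 (chr11:98907987-98908046, + strand), Mcm5 (chr8:75109334-75109393, + strand), Mcm7 (chr5:138172015-138172074, - strand) and Mcm6 (chr1:128359782-128359841, - strand). Cdc6 rose by 2.76, Mcm5 by 2.62, Mcm7 by 2.55 and Mcm6 by 1.69.
Cdc6: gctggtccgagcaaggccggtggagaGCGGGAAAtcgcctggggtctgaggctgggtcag
Mcm5: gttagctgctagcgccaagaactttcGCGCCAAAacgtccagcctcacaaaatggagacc
Mcm7: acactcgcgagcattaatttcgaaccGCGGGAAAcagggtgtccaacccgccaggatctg
Mcm6: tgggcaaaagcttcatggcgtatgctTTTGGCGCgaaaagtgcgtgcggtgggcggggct

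Among 37 genes of cell cycle entry and its brakes 20 rose and 7 fell. The factor gene E2f2 rose by 3.62, the cyclin gene Ccne1 by 1.75 and the pocket protein gene Rbl1 by 2.41. The early G1 cyclins did not follow: Ccnd2 read -0.72, -1.06 and -0.87 in PBS and -2.37, -4.21, -3.41 and -3.79 in IL-4c and fell by 2.57 (SE 0.42, adjusted p = 0.00269), with IL-4c arrays widely spread, and Ccnd1 differed by -0.51 (0.0855). The brakes Cdkn1c (-2.87) and Cdkn2b (-2.57) and the antiproliferative gene Btg1 (-1.48) fell, Cdkn1b fell by 0.49, and Cdkn1a (p21), a target of p53, rose by 1.42 (SE 0.17, adjusted p = 0.000708). Groups overlapped for Ccnd1 and Cdkn1b. The call was lost in some of the 21 fits for Cdkn1b (8 fits). A further probe differed by 0.20 for Cdkn1a, -1.94 for Cdkn2b and 1.76 for Rbl1.

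Protein synthesis genes did not move together. Of 38 ribosome biogenesis genes 18 rose and 2 fell (14 to 30 rose under the alternatives), led by the nucleolar genes Nop56 (1.24), Dkc1 (1.22) and Nolc1 (1.21). Of 42 genes of the mitochondrial ribosome and its expression machinery 35 rose, with a median of 0.76. None of the 32 cytosolic ribosomal protein genes rose and 26 fell, with a median of -0.57, but with quantile normalization 6 fell with a median of -0.07, and 15 fell in the authors' table. Another probe gave a difference of 0.22 for Nolc1.

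Mitochondrial energy genes rose broadly and modestly. Of 33 complex I genes 31 rose and none fell (median 0.79), of 39 genes of complexes II to V 37 rose and none fell (median 0.79), and of 30 citrate cycle genes 27 rose and 1 fell (median 0.90). Cyc1, cytochrome c1 of complex III, read 3.32, 3.13 and 3.08 in PBS and 5.06, 4.95, 5.05 and 4.96 in IL-4c, 3.56-fold higher (SE 0.08, adjusted p = 1.6e-05). Idh3a, a subunit of the NAD-linked isocitrate dehydrogenase, read 1.55, 1.404 and 1.04 in PBS and 3.26, 3.11, 3.29 and 2.98 in IL-4c, 3.55-fold higher (SE 0.14, adjusted p = 0.000119). Neither gene's groups overlapped. Ndufab1, which also carries acyl chains for mitochondrial fatty acid synthesis, rose most in complex I (2.505), and Pcx, which refills the cycle from pyruvate, rose by 1.64. The exception in the cycle was the cytosolic aconitase Aco1, also an iron sensor, which fell by 0.62. In some of the 21 fits the calls lost were those of Aco1 (3 fits).

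Fatty acid oxidation gave 20 rises and 5 falls among 35 genes. The electron transfer gene Etfa (1.62), the dehydrogenase gene Acadl (1.596) and the thiolase gene Acaa2 (1.41) rose, whereas the fatty acid transporter gene Cd36 (-3.13), the receptor gene Ppard (-0.80) and the fatty acid binding gene Fabp4 (-0.64) fell. Of 34 glycolysis and pentose phosphate genes 20 rose and 4 fell. The aldolase gene Aldoc read -0.74, -1.25 and -1.29 in PBS and 2.41, 2.69, 2.35 and 2.66 in IL-4c, 12.3-fold higher (SE 0.17, adjusted p = 2.02e-05), and the regulator gene Pfkfb4 rose by 3.23, the glucose transporter gene Slc2a1 by 2.58 and the lactate exporter gene Slc16a3 by 1.98. Ldhb, the lactate dehydrogenase subunit of oxidative tissues, read 1.69, 1.94 and 1.703 in PBS and -1.94, -2.08, -1.87 and -2.32 in IL-4c, 14.2-fold lower (SE 0.13, adjusted p = 8.92e-06), while Ldha rose by 0.27. Aldoc and Ldhb arrays were fully apart between groups. Calls not kept in all 21 fits were those of Fabp4 (2 fits) and Ldha (11 fits).

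Amino acid supply genes rose in 29 of 38 cases and fell in 4, with a median of 0.92. Asns, asparagine synthetase, read -2.05, -2.13 and -2.001 in PBS and 3.37, 2.995, 2.44 and 3.62 in IL-4c, 35.9-fold higher (SE 0.27, adjusted p = 3.11e-05). Mthfd2, an enzyme of mitochondrial folate metabolism, read -1.71, -1.98 and -1.35 in PBS and 2.14, 1.95, 1.895 and 2.75 in IL-4c, 14.5-fold higher (SE 0.25, adjusted p = 5.82e-05). Psat1 of serine synthesis rose by 3.25 and Shmt2, which turns serine into glycine in mitochondria, by 2.41. Many of these genes are known targets of the stress factor ATF4, and Atf4 itself rose by 1.11 (SE 0.09). Charging enzyme genes rose less, such as Aars (1.92) and Cars (1.44), and the transporter genes Slc7a8 (-2.03) and Slc43a2 (-1.33) fell. Of 40 genes of folding and secretion in the endoplasmic reticulum 29 rose and 3 fell, with a median of 0.69. The oxidase gene Ero1a (2.51), the chaperone gene Hyou1 (1.54) and the secreted factor gene Manf (1.49) led, and Xbp1, the factor of the unfolded protein response, differed by -0.18 (0.073). On another probe the difference was 1.04 for Psat1.

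Most sterol synthesis genes rose, while sterol export genes fell more often than they rose. Of 26 genes of cholesterol synthesis and its control 19 rose and 1 fell, with a median of 0.71 (9 to 22 rose under the alternatives, the lowest with slide row as a term). The squalene epoxidase gene Sqle rose by 2.34 and the farnesyl diphosphate synthase gene Fdps by 2.28. Of 25 genes of sterol export, lipoproteins and targets of the sterol receptor LXR, 5 rose and 11 fell. Their median was -0.005 (-0.37 to 0.08 under the alternatives), near that of all genes (0.01), although some members fell far. Apoe, the main apolipoprotein of macrophages, read 8.23, 8.27 and 8.64 in PBS and 4.46, 4.56, 4.68 and 4.42 in IL-4c, 14.4-fold lower (SE 0.12, adjusted p = 7.23e-06). Abca1, which loads cholesterol onto apolipoproteins, read 2.13, 2.304 and 2.44 in PBS and -2.35, -3.32, -3.37 and -2.26 in IL-4c, 34.7-fold lower (SE 0.33, adjusted p = 5.42e-05). Pltp, a phospholipid transfer protein, read 4.39, 4.91 and 4.72 in PBS and -0.31, -0.19, -0.56 and -0.49 in IL-4c, 33.4-fold lower (SE 0.15, adjusted p = 6.05e-06). These genes stood high in PBS and every IL-4c array lay below every PBS array, which the ranking above had required of Abca1 and Pltp. Not all targets of LXR moved so: Abcg1 differed by 0.03 (adjusted p = 0.89), Srebf1 by -0.24 (0.094) and the receptor gene Nr1h3 by 0.06 (0.473), while Mylip, which degrades the LDL receptor, fell by 2.17 and Scd2 rose by 1.65. Some of the 21 fits lost the call of Scd2 (2 fits).

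**Figure D3:**
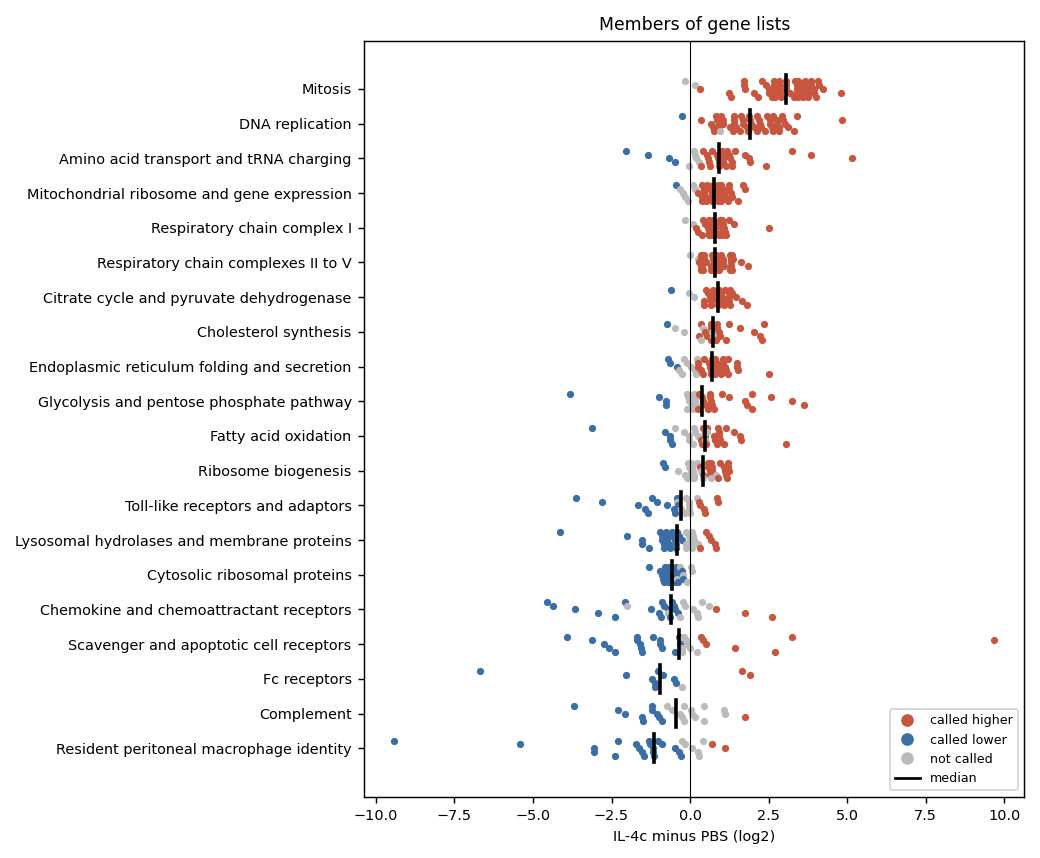
IL-4c minus PBS on the log2 scale (x axis) for every measured member of 20 gene lists (rows). Each point is 1 gene, coloured by whether it was called higher, lower or not at an adjusted p under 0.05, and the black line is the list's median. Mitosis and DNA replication lie far to the right (medians 3.05 and 1.89) and the resident identity list to the left (-1.16). Cytosolic ribosomal proteins lie left in this scaling, with a median of -0.07 under quantile normalization.

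Toll-like, Fc and scavenger receptor genes, by which macrophages sense microbes and particles, fell more often than they rose. Of 27 genes of Toll-like receptors and their adaptors 6 rose and 12 fell. Tlr2, the receptor for bacterial lipopeptides, read 2.34, 2.36 and 2.297 in PBS and -1.22, -1.08, -1.33 and -1.54 in IL-4c, 12.3-fold lower (SE 0.11, adjusted p = 6.92e-06). Cd14, a co-receptor for endotoxin, read 4.94, 4.98 and 5.15 in PBS and 2.26, 2.099, 2.12 and 2.404 in IL-4c, 6.99-fold lower (SE 0.10, adjusted p = 9.81e-06). Tlr4, the endotoxin receptor, read 1.11, 1.27 and 1.49 in PBS and 2.09, 2.04, 2.07 and 2.42 in IL-4c and rose by 0.86 (SE 0.13, adjusted p = 0.00203), as did its partner Ly96 (0.87). Cd14 and Tlr4 thus went opposite ways, each without overlap of groups. The RNA sensor genes Tlr13 (-1.66) and Tlr7 (-1.33) fell. Among Fc receptors 2 of 12 rose and 9 fell (5 to 10 under the alternatives). Fcgr2b, the inhibitory receptor for IgG, rose by 1.64 (SE 0.08), while the activating receptor genes Fcgr4 (-1.21) and Fcgr3 (-1.101) and their signalling chain Fcer1g (-1.03) fell. Fcgr1 fell by 6.70 (SE 0.43), on 3 of 4 IL-4c arrays well above background. The call was lost in some of the 21 fits for Fcgr4 (4 fits). The farthest other probe differed by -2.68 for Tlr7.

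Of 32 scavenger and apoptotic cell receptor genes 7 rose and 17 fell, with differences from -3.91 to 9.69. Marco, a scavenger receptor for bacteria and particles, read 6.47, 6.43 and 6.52 in PBS and 2.27, 1.699, 3.53 and 2.76 in IL-4c, 15.1-fold lower (SE 0.41, adjusted p = 0.000385). Stab1 (-2.73), Msr1 (-1.58) and Timd4 (-1.53), a receptor for phosphatidylserine on dying cells, fell as well. The bridging protein genes Gas6 (-1.69) and Mfge8 (-1.69) fell, while Axl, a receptor for Gas6, rose by 1.41 and its relative Mertk fell by 0.36. Havcr2 (TIM-3) read -4.15, -3.88 and -4.74 in PBS and -1.46, -1.73, -1.72 and -1.29 in IL-4c, 6.53-fold higher (SE 0.22, adjusted p = 0.000149). C-type lectin genes rose in 7 and fell in 9 of 28 cases, shares near those of all genes (5 to 10 fell under the alternatives). Clec4g (3.93), Clec10a and Mgl2 rose, and Clec4d (-4.17), a receptor for mycobacterial glycolipid, and Cd302 (-3.33) fell. In the inflammasome list 5 of 22 rose (22.7%, against 25.6% of all genes), led by Nlrp1a (3.33). There 9 fell (5 to 10 under the alternatives), among them Nlrc4 (-1.57), Nod2 (-1.53) and Sting1 (-1.47). In some of the 21 fits the calls lost were those of Mertk (5 fits). A further probe differed by 0.05 for Nlrp1a.

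Receptors for chemoattractants fell in 17 of 30 cases and rose in 3, with a median of -0.60 (10 to 19 fell under the alternatives, the lowest with slide row as a term). Fpr1 and Fpr2, neighbouring genes of receptors for bacterial formyl peptides, fell by 4.37 (SE 0.11) and 4.54 (SE 0.90). Fpr1 read 2.104, 2.49 and 2.28 in PBS and -2.05, -2.03, -1.995 and -2.26 in IL-4c. Ccr2, the receptor of inflammatory monocytes, read -0.28, 0.27 and 0.07 in PBS and -4.40, -3.37, -3.48 and -3.31 in IL-4c, 12.6-fold lower (SE 0.30, adjusted p = 0.000139). The receptor gene for complement C5a, C5ar1 (-2.06), fell, and the scavenging receptor gene Ackr3 (2.62) and the leukotriene B4 receptor gene Ltb4r1 (1.73) rose. Calls not kept in all 21 fits were those of Fpr2 (1 fit).

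Of 24 complement genes 1 rose, C3 (1.74), the component all pathways meet in, and 10 fell, with the receptor gene Vsig4 at -2.31 and C1qa, C1qb and C1qc of the first component at -1.54, -1.06 and -1.51. C1qa read 7.03, 7.05 and 7.09 in PBS and 5.44, 5.47, 5.63 and 5.52 in IL-4c. In the coagulation list, where 7 of 32 rose and 9 fell, shares near those of all genes (5 to 15 fell under the alternatives), F13a1 fell most, followed by the tissue factor gene F3 (-2.21) and F5 (-1.46). CC chemokine genes fell in 7 of 15 cases and rose in 3, with Ccl3 at -6.92 (2 of 4 IL-4c arrays well above background) and Ccl4 at -2.89. Of 14 CXC and other chemokine genes 8 fell and 2 rose. The stromal chemokine gene Cxcl12 read 1.13, 1.43 and 0.92 in PBS and -2.801, -3.38, -2.76 and -2.81 in IL-4c, 17.1-fold lower (SE 0.20, adjusted p = 2.34e-05), and the neighbouring neutrophil chemoattractant genes Cxcl1 (-3.28) and Cxcl2 (-3.47) fell. The chemokine genes that rose were Ccl17, Ccl12, Ccl8, Cxcl5 and Cxcl3, by 1.17, 0.49, 0.45, 1.05 and 0.59. Some of the 21 fits lost the call of Ccl12 (4 fits), Ccl8 (12 fits), Cxcl3 (12 fits, the sign turned in 2) and Cxcl5 (1 fit). Another probe gave a difference of -2.89 for Cxcl12.

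Of 29 inflammatory cytokine and acute-phase genes 4 rose and 12 fell (7 to 15 fell under the alternatives). Il6 read -1.43, -1.06 and -0.32 in PBS and 3.12, 2.83, 2.41 and 3.16 in IL-4c, 14.1-fold higher (SE 0.31, adjusted p = 0.000132), and did so without overlap, while Il1b (-1.54), Tnf (-1.02), the calprotectin gene S100a8 (-3.07) and Saa3 (-1.63) fell. Type I interferon response genes gave no firm count: 5 of 33 rose and 4 fell (2 to 16 rose under the alternatives), and 3 rose without PBS 1 or without PBS 2 and 16 without PBS 3. Oasl1, an inhibitor of IRF7 translation, rose by 4.23 (SE 0.59), whereas Irf1 fell by 1.24. The call was lost in some of the 21 fits for Il1b (9 fits) and Tnf (2 fits).

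Of 15 genes for presenting antigen on MHC class II molecules, 7 fell and 2 rose (4 to 10 fell under the alternatives). H2-Oa (-2.41) and H2-DMb2 (-2.33), parts of the peptide loading machinery that B cells also express, fell most, the thiol reductase gene Ifi30 rose (1.41), and the class II transactivator gene Ciita differed by -0.25 (0.604). B cell markers moved with this group: 10 of 13 fell, and their summed signal was 11.5 to 20.9 in PBS and 3.90 to 4.46 in IL-4c, in units of the array's 75th percentile. Their part in the class II result was not tested. Fewer cells of a type and less RNA per cell cannot be told apart in such bulk samples. Of 19 genes of T cell costimulation and inhibition 5 rose (26.3%, against 25.6% of all genes) and 7 fell (36.8%, against 24.7%). The inhibitory ligand gene Cd274 (PD-L1) read -0.52, -0.40 and 0.14 in PBS and 1.62, 1.603, 0.91 and 1.83 in IL-4c and rose by 1.75 (SE 0.26, adjusted p = 0.00182). The costimulatory ligand gene Cd86 read 2.49, 2.62 and 2.41 in PBS and 0.90, 1.08, 0.39 and 0.93 in IL-4c and fell by 1.68 (SE 0.17, adjusted p = 0.000338). Cd80 (-1.03), Icosl (-1.55) and Cd40 (-0.81) fell too. In some of the 21 fits the calls lost were those of H2-DMb2 (2 fits). On another probe the difference was -0.33 for Cd80.

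Lysosomal genes fell in 23 of 40 cases (57.5%, against 24.7% of all genes) and rose in 6, with a median of -0.42 and 14 falls in the authors' table. Cd63, a membrane protein of late endosomes, read 3.88, 4.27 and 3.85 in PBS and -0.33, -0.50, -0.10 and 0.40 in IL-4c, 17.6-fold lower (SE 0.24, adjusted p = 3.81e-05). The lysosomal phospholipase gene Pla2g15 (-2.01), the hexosaminidase gene Hexa (-1.52) and the mannosidase gene Man2b1 (-1.51) fell. The phosphatase gene Acp5 (0.81) and the sterol carrier gene Npc1 (0.81) rose. Proton pump subunits rose in 7 of 18 cases and fell in 2 (4 to 13 rose under the alternatives), led by Atp6v1a (1.03). Of 21 cathepsins and cathepsin inhibitors 7 rose and 8 fell (5 to 8 fell under the alternatives). Beside Cst7, the protease gene Ctsl (0.85) rose, and Ctsg (-1.36), Ctss (-1.01) and the inhibitor gene Cst3 (-1.05) fell. Calls not kept in all 21 fits were those of Acp5 (5 fits) and Ctsg (2 fits).

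Of 25 matrix metalloproteinase and inhibitor genes 5 rose and 8 fell (3 to 12 fell under the alternatives, 5 without PBS 3 or IL-4c 4). Mmp14, a membrane-bound collagenase, rose by 1.74 and the inhibitor gene Timp1 by 1.57, and the gelatinase gene Mmp9 fell by 2.54. Of 41 matrix and repair genes 8 rose and 20 fell. Spp1 (osteopontin) read -0.79, -0.69 and -0.69 in PBS and 3.38, 3.54, 3.07 and 3.69 in IL-4c, 17.7-fold higher (SE 0.15, adjusted p = 9.64e-06). Tgfbi, a matrix protein induced by TGF-beta, read 6.82, 6.84 and 6.57 in PBS and 2.91, 3.76, 3.096 and 3.57 in IL-4c, 10.6-fold lower (SE 0.22, adjusted p = 5.94e-05). The collagen gene Col14a1 (4.52) rose, and the growth factor genes Hgf (-2.74) and Tgfb2 (-3.05) fell. Igf1 differed by 0.23 (0.264) and Vegfa by 0.70 (0.191). Some of the 21 fits lost the call of Timp1 (1 fit). The farthest other probe differed by 1.12 for Col14a1 and -0.57 for Igf1.

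Among growth factor and cytokine receptor genes 7 of 34 rose and 15 fell. Il1rl1, the receptor for interleukin-33, read 0.02, 0.39 and 0.23 in PBS and 4.18, 4.32, 3.94 and 4.39 in IL-4c, 15.9-fold higher (SE 0.14, adjusted p = 9.43e-06). Csf1r, the receptor that macrophages need for survival, read 7.62, 7.71 and 7.87 in PBS and 6.54, 6.63, 6.61 and 6.65 in IL-4c and fell by 1.13 (SE 0.08, adjusted p = 6.49e-05), and its ligand gene Csf1 fell by 1.06 (SE 0.13). The shared beta chain genes of the receptors for GM-CSF and related cytokines, Csf2rb (1.103) and Csf2rb2 (0.84), rose, and Il10ra (-2.18) and Ifnar1 (-1.33) fell. Of 23 fusion genes 6 rose (26.1%) and 5 fell (21.7%), shares near those of all genes (2 to 8 rose under the alternatives). Cdh1 (given above by its bound) was among the rises and the ATP receptor gene P2rx7 (-2.87) among the falls. Integrin genes rose in 4 and fell in 8 of 22 cases (2 to 8 rose under the alternatives), with Itga6 at -3.07 and Itga9 at -2.36. A further probe differed by -1.75 for Csf1, -0.69 for Ifnar1, 2.599 for Il1rl1 and -1.35 for P2rx7.

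Of 33 eicosanoid genes 9 rose and 14 fell (8 to 19 fell under the alternatives). The lipoxygenase gene Alox12e (2.18) and the prostacyclin receptor gene Ptgir (1.15) rose, and Cbr2 (-3.09), Ephx1 (-2.298) and Alox15 fell. In iron and heme handling 8 of 31 rose and 12 fell (7 to 13 fell under the alternatives), with differences from -5.29 to 9.69. Tfrc, the transferrin receptor, read -1.95, -1.71 and -2.33 in PBS and 0.18, 0.18, 0.26 and -0.07 in IL-4c, 4.39-fold higher (SE 0.16, adjusted p = 9.93e-05), and the reductase gene Steap3 rose by 1.32, while the ferritin gene Fth1 (-0.83), the metal transporter gene Slc11a1 (-1.37) and ceruloplasmin, Cp (-3.54), fell. Antioxidant genes split, 17 of 35 rising and 12 falling, with Gsto1 (2.66), Srxn1 (1.74) and Prdx3 (1.52) rising and Mgst1 (-3.02) and Gpx3 (-1.72) falling. The call was lost in some of the 21 fits for Alox12e (1 fit). Another probe gave a difference of -0.99 for Ephx1.

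Of 17 genes of the NADPH oxidase and of killing 3 rose and 7 fell, among them the oxidase gene Cybb (-1.44), the pore gene Mpeg1 (-1.73) and the itaconate synthase gene Acod1 (-1.98) below Lyz2. In the pathway of extracellular ATP and adenosine 9 of 25 rose and 9 fell. Beside Entpd3, the adenosine receptor genes Adora3 (2.88) and Adora2b (1.93) and the deaminase gene Ada (1.83) rose, and the nucleotide receptor genes P2ry6 (-3.89) and P2rx7 fell. Adora3 read -2.72, -3.27 and -1.69 in PBS and 0.32, 0.28, 0.26 and 0.43 in IL-4c and P2ry6 read 0.19, 0.43 and -0.01 in PBS and -3.66, -3.87, -3.53 and -3.69 in IL-4c. In both the arrays of the groups were apart. Of 16 aquaporins, uncoupling proteins and adenine nucleotide carriers 6 rose, Aqp3, Aqp1, Ucp1, Mip (1.602), Slc25a5 (1.42) and Slc25a4 (1.07), and Ucp2 (-0.37) and Ucp3 (-0.51) fell (0 to 3 fell under the alternatives). Of 18 clade B serpins 8 rose and 5 fell (2 to 8 rose under the alternatives, 5 without PBS 1), Serpinb7 standing far above the others. In the MS4A family 1 of 15 rose and 8 fell, in the TREM family 2 and 7 of 11, with Treml2 at 4.46 and Pilra at -3.82, and of 27 retinoid genes 5 rose and 4 fell (2 to 7 under the alternatives), with Dhrs3 at -1.21. In some of the 21 fits the calls lost were those of Ucp2 (4 fits) and Ucp3 (3 fits). On another probe the difference was -2.34 for Mpeg1 and -1.43 for Ucp3.

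Genes that mark resident peritoneal macrophages fell in 20 of 28 cases (71.4%) and rose in 2, with a median of -1.16. After Cxcl13 and Apoc1, the laminin-binding integrin gene Itga6 read 7.204, 7.42 and 7.195 in PBS and 4.11, 4.34, 4.15 and 4.23 in IL-4c, 8.37-fold lower (SE 0.09, adjusted p = 5.52e-06). Tgfb2 read 5.03, 5.11 and 5.24 in PBS and 1.97, 2.83, 1.39 and 2.098 in IL-4c, 8.3-fold lower (SE 0.32, adjusted p = 0.000365). The adhesion gene Icam2, a surface marker of these cells, fell by 1.02, the lubricin gene Prg4 by 1.72 and Ltbp1 by 2.38. Gata6 (above), Rarb (0.27, adjusted p = 0.0641) and Nt5e (0.30, 0.101) did not pass the test, and Serpinb2 rose by 1.097. Calls not kept in all 21 fits were those of Serpinb2 (2 fits). The farthest other probe differed by -2.603 for Prg4.

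The sort markers were present in both groups. Itgam (CD11b) read 5.86, 5.89 and 6.104 in PBS and 5.87, 5.72, 5.73 and 5.83 in IL-4c, a difference of -0.17 (adjusted p = 0.147), although another of its 3 probes had a difference of 0.38. Adgre1 (F4/80) read 6.44, 6.61 and 6.58 in PBS and 6.35, 6.21, 6.24 and 6.26 in IL-4c and fell by 0.27 (adjusted p = 0.0153). Of 10 macrophage and sort markers 1 rose and 7 fell, and their summed signal was 739 to 858 in PBS and 253 to 264 in IL-4c, Lyz2 being the brightest in PBS. Summed signals of other cells' markers ran lower in IL-4c for mast cells (13.6 to 14.8 in PBS and 7.8 to 10.9 in IL-4c), neutrophils (53 to 68 in PBS and 35.2 to 43.5 in IL-4c), dendritic cells (103 to 134 in PBS and 63.9 to 69.3 in IL-4c) and the erythroid and platelet list (219 to 243 in PBS and 45.8 to 59.7 in IL-4c), the last mostly from Pf4, which macrophages also express. The neutrophil sum came mostly from Csf3r, whose difference was -0.67. Of 10 neutrophil markers 4 fell and 1 rose (2 to 5 fell under the alternatives). Of 11 dendritic cell markers 4 fell (36.4%) and 3 rose (27.3%), with a median of -0.17 (4 to 5 fell under the alternatives). Mast cell markers fell in 5 of 9 cases and rose in 2 (3 to 5 fell under the alternatives). In the erythroid and platelet list 2 of 10 fell and 0 rose (1 to 7 fell under the alternatives). Such sums weigh the brightest genes of a list most. Groups overlapped for T and NK cells (19.4 to 23.1 in PBS and 17.9 to 26.5 in IL-4c), eosinophils (10.1 to 11.5 in PBS and 10.3 to 11.1 in IL-4c) and monocytes (234 to 339 in PBS and 213 to 343 in IL-4c, a list that includes Chil3). The 213 was the sum of IL-4c 3, which lacks Fn1, since that gene had no value there. On the other IL-4c arrays Fn1 read 6.98, 6.73 and 6.98. Though the sums overlapped, 7 of 17 T and NK cell markers fell (41.2%, against 24.7% of all genes) and 1 rose (4 to 10 fell under the alternatives). Mesothelial and stromal markers summed to 2.2 to 2.37 in PBS and 2.37 to 2.97 in IL-4c. In the eosinophil list 2 of 8 measured genes rose and 4 fell (2 to 4 fell under the alternatives), with differences from -1.68 (Adgre4) to 4.05 (Cebpe). The peroxidase gene Epx of that list was well above background on fewer than 3 arrays and was not tested, and in the B cell list Cd79b (-3.497) and Ms4a1 (-3.72) fell. Of 24 genes of the immediate early and heat shock kind, which handling can induce, 6 rose (25%) and 7 fell (29.2%), shares near those of all genes. The part of these cells and of handling in the other results was not tested. Some of the 21 fits lost the call of Adgre1 (8 fits, the sign turned in 2).

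**Figure D4:**
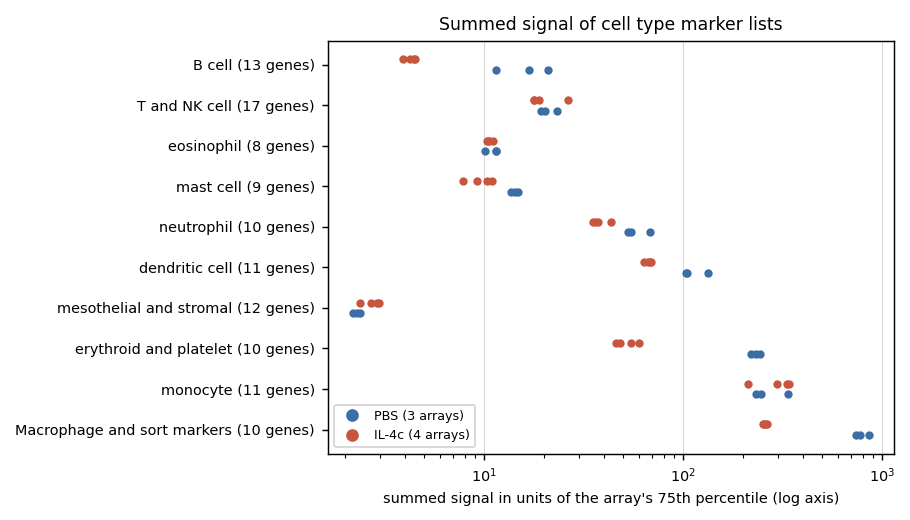
Summed signal of each cell type marker list per array, in units of the array's 75th percentile on a log axis. Points are arrays, 3 of PBS and 4 of IL-4c, and the number of measured genes stands beside each list. The macrophage list sums to 739 to 858 in PBS and 253 to 264 in IL-4c, and the T and NK cell, eosinophil and monocyte lists overlap.

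The same 30 genes with the largest changes were compared with the IL-4c effect in thioglycollate-elicited cells. The difference between the effects, over all 14 arrays, was called for 34.7% of all genes and for 27 of these 30. Since the genes were chosen for the size of their change in resident cells, a smaller change elsewhere is favoured by the choice. The effect on Ddx4 was 8.37 in elicited cells against 8.13 in resident cells, a difference of 0.24 (SE 0.41, adjusted p = 0.675). For Ucp1 the effect there was -0.68, and the difference was -6.68 (SE 0.71, adjusted p = 2.52e-05). Pltp, which fell in resident cells, had an effect of 2.51 in elicited cells. Thio 2, Thio 3 and all Thio+IL-4c arrays lay on another slide, so slide and cell source cannot be told apart in levels across them.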

How the data were processed

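Each array held 62976 spots, of which 3671 were controls, scanned in 1 colour. The authors deposited scanner output with intensity values per spot (Agilent Feature Extraction 11.0.1.1 per the file headers, 11.5 per the submitters' processing notes, which also name limma) and a table of log2 values with a median of 9.234 on every array, with no further step of its normalization stated in those sources. The main values were log2 of the processed signal minus each array's 75th percentile. A probe was kept if well above background on at least 3 of the 7 arrays, and the brightest kept probe stood for its gene. Of 55681 probes, 27235 had 1 gene symbol and 28446 none. The groups were compared with limma 3.58.1 in R 4.3.3 (lmFit, eBayes, 5 residual degrees of freedom) and Benjamini-Hochberg adjustment over all genes, after the code was tested on simulated data. Number of arrays, and signal over background, limit the precision.

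Genes were named by rule: the 15 largest rises and falls among called genes well above background on all 7 arrays whose groups did not overlap, the 10 largest bounds each way, up to 4 called members of each list at either end, and 30 index genes. Some genes the rule names are not reported here. Members named beyond this rule, for their roles, and the promoters shown were chosen after their values or matches were seen. The comparison, gene lists and index genes were chosen with earlier results of these data known. Alternatives were quantile and median scaling, normexp background correction (offset 50), other filters on dim probes, the mean of a gene's probes, all 14 arrays, slide as a block, the replicate number as a block, array weights, another variance prior, the authors' table and leaving out each array. Slide row as a term and an offset added to the signal were chosen after seeing the data. For normexp the median spot signal was used, since the mean was not in the columns used here. Deviations of same-numbered arrays correlated at -0.105, 0.22 and -0.114, and those of differently numbered arrays at -0.425 to 0.401. With so few arrays these values cannot decide whether the numbers pair the arrays, and the main fit took them as unpaired.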

Additional observations from a re-analysis of the deposited data

Results flagged for a closer look

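Among the 4 IL-4c arrays, 1 array stood apart from the others, by the gap to its nearest neighbour as a share of the range (above Dixon's 95% critical value), for 17 genes. Chance alone marks about 1 in 20 groups, and 316 genes were examined. Ppp1r3c, among those below, was not well above background on any IL-4c array, so its gap lies among background readings. On the log2 scale the gap was widest for Retnlg IL-4c 1 (1.86, nearest other -1.785), the resistin-like gene, and as a share of the range it was widest for Aars. Arrays that lay higher than the others were Aars IL-4c 4 (3.534, nearest other 3.323), Hspa1a IL-4c 3 (-2.263, nearest other -3.11), Ltbp1 IL-4c 4 (2.423, nearest other 2.195), Msr1 IL-4c 2 (3.035, nearest other 2.879), Ndufab1 IL-4c 3 (1.316, nearest other 1.059), Ppp1r3c IL-4c 4 (-7.358, nearest other -8.593), Tlr4 IL-4c 4 (2.42, nearest other 2.092), Ube2c IL-4c 3 (4.088, nearest other 3.889) and Uhrf1 IL-4c 3 (2.994, nearest other 2.641). Arrays that lay lower were Ccr2 IL-4c 1 (-4.4, nearest other -3.477), Cdkn2b IL-4c 3 (-1.658, nearest other -1.26), Cxcl12 IL-4c 2 (-3.38, nearest other -2.806), Irf1 IL-4c 1 (2.635, nearest other 3.023), Ms4a1 IL-4c 2 (-3.128, nearest other -2.166), Prc1 IL-4c 2 (3.307, nearest other 3.527) and Sting1 IL-4c 2 (0.081, nearest other 0.41).

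For 27 of the 30 genes with the largest changes, the effect of IL-4c was not the same in elicited as in resident cells (limma over 14 arrays, adjusted p under 0.05). Adding slide as a block kept the direction and the call of all 27, as did leaving out Thio 1. Thio 1 was the only elicited array on the slide of the resident cells, so the block amounts to leaving it out. It cannot tell slide from cell source. Differences below are elicited minus resident. Among genes that rose in resident cells the difference was negative for Chil4 (-2.8815), Aqp3 (-4.7647), Klk1b11 (-6.8421), Serpinb7 (-7.4011), Tcf23 (-5.727), Galnt6 (-6.4468), Chil3 (-2.8646), Ucp1 (-6.6763), Gatm (-2.4481) and Syt10 (-10.9449). It was positive for Ear10 (0.9752) and Rnase2a (1.4653), ribonuclease genes of close copies. For genes that fell in resident cells it was positive for Nat8l (5.3124), Hspa1a (8.5926), Rprm (6.402), Emb (4.2514), Pltp (7.5721), Abca1 (3.0165), Hp (5.7448), Apoc1 (4.2254), Apoc4 (5.5732), Dusp6 (6.0054), Irf8 (3.185), Lpl (6.2946), Lyz2 (5.2286), F13a1 (6.1687) and Cxcl13 (8.8401). Choice by the size of the resident effect favours differences towards a smaller effect in elicited cells. Starting levels differed too. Cxcl13 averaged 7.041 in PBS and -3.09 in Thio, and -2.374 in IL-4c and -3.665 in Thio+IL-4c. Galnt6 averaged -3.003 in PBS and 4.803 in Thio, and 3.19 in IL-4c and 4.549 in Thio+IL-4c. Other falling genes started higher in Thio than in PBS, such as Lpl (6.244 against 4.746) and Irf8 (4.252 against 3.84). The part of the starting level in these differences was not tested.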

How the results depend on the processing

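Under the 14 alternative settings the number of genes called ran from 6342 with slide row as a term to 10734 with normexp, against 9623, and leaving out 1 array at a time gave 8668 to 9028. With slide row as a term 2868 genes fell, 9 cholesterol synthesis genes rose (against 19) and 10 chemoattractant receptor genes fell (against 17). With all 14 arrays in the fit 3110 genes fell. Of 26 cytosolic ribosomal protein genes that fell, 6 did with quantile normalization and 15 in the authors' table, where 14 lysosomal genes fell (against 23). The cause of these shifts was not tested. Signs turned for Adgre1 (0.0392 with quantile normalization, 0.0915 in the authors' table), Cxcl3 (-0.1355 with normexp, -0.0697 in the authors' table) and Gins3 (0.0784 in the authors' table). The median of all genes was -0.1259 with normexp, against 0.0113. Of 287 called genes that were named and followed in the fits, 256 were called in the same direction in every fit run on them. With the replicate number as a block, for which the labels state no pairing, 6634 genes were called. Dim probes limit PBS more than IL-4c, since fewer were well above background there.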

Other observations

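Further single genes, picked after their values were seen, are given here with no count of any group. Among genes known for mending broken and crosslinked DNA, Rad54b rose by 4.25 (SE 0.44, adjusted p = 0.000356), Rad54l by 3.26, Brca1 by 2.33, Brca2 by 2.36, Fanci by 3.23 and Fancd2 by 2.403 (limma). Rad54b read -2.91, -4.72 and -3.14 in PBS and 0.75, 0.69, 0.39 and 0.82 in IL-4c, with no overlap between groups, and rose by 1.58 on its other probe. Of genes that damp ERK signalling beside Dusp6, Spry1 fell by 1.99, Dusp1 fell by 1.98 and Spred1 fell by 0.83, Spry2 differed by -1.26 (limma, adjusted p = 0.0664), and Dusp10, which acts on other kinases of the family, rose by 3.63. The regulators of G protein signalling Rgs1 and Rgs2 fell by 4.22 and 4.59, the call of Rgs1 being lost in 1 of 21 fits and Rgs2 falling by 2.25 on its other probe.

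Of other single genes known as targets of ATF4, Trib3 rose by 5.03 (SE 0.37, adjusted p = 9.48e-05), Atf5 by 3.18 and Chac1 by 2.36 (limma), whereas Sesn2 differed by -0.01 (adjusted p = 0.931). Of the neighbouring metallothionein genes, Mt2 rose by 3.45 and Mt1 differed by 0.18 (adjusted p = 0.32). Neighbouring genes that both rose at least 8-fold made 8 pairs of 19120, among them Chil3 with Chil4, Mal with Mall and Spag5 with Aldoc, and 6 pairs both fell at least 8-fold, among them Lyz1 with Lyz2, Fpr1 with Fpr2 and Cxcl1 with Cxcl2. Probes of such close relatives may share signal.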
